A study of Homo sapiens with 2 samples.

Results

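CD47 and CTSS, 2 of the 19775 genes named on the array, were followed probe set by probe set in the established cell line PLC/PRF/5, which comes from a human hepatocellular carcinoma. The members were all probe sets whose single gene symbol in the array annotation is CD47, CTSS or F2RL1. They numbered 10 of 54675 on the array, or 10 of the 41091 that carry 1 gene symbol: 7 for CD47 and 3 for CTSS. F2RL1 was not analysed here.

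Each of 2 cultures gave total RNA for 1 Affymetrix U133 array. One group was chemoresistant hepatospheres, that is, spheroids treated with a combination of cisplatin and doxorubicin. The other was differentiated cells, made by giving spheroids fetal bovine serum and letting them attach. Both cultures are therefore of spheroid origin and of a single line, and whether the spheroids that became differentiated cells had met the drugs is not stated in the labels. Spheroid growth, serum, attachment and possibly drug exposure cannot be told apart. With 1 array per group there are no replicates, so no difference was tested, none carries an error, and every number describes these arrays only.

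CD47 is a cell surface protein of the immunoglobulin superfamily with several membrane-spanning segments. Its binding to SIRPA on macrophages restrains phagocytosis, and it also binds thrombospondin and associates with integrins. CTSS encodes cathepsin S, a cysteine protease of the papain family that is active in lysosomes, stays active at neutral pH, and trims the invariant chain of MHC class II in antigen-presenting cells. Cathepsin S can also be secreted and cleave protease-activated receptor 2 (PAR2), a G protein-coupled receptor switched on by cleavage of its extracellular end. In hepatocellular carcinoma CD47 has been studied as a marker of tumour-initiating cells, together with cathepsin S and PAR2.

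The start-site region of CD47 is shown because CD47 had the largest difference on any member probe set and its promoter is known to bind NRF1, a transcription factor that recognises GC-rich palindromes. Of the 2 measured members, 1 was in RefSeq's promoter table (build GRCh38.p14). The 300 bases below run 5′ to 3′ on the minus strand of chr3:108090982-108091281 and hold 250 bases before the start site and 50 after it. Capitals mark matches to GCNTGCG, the inner letters of the NRF1 motif.
CD47: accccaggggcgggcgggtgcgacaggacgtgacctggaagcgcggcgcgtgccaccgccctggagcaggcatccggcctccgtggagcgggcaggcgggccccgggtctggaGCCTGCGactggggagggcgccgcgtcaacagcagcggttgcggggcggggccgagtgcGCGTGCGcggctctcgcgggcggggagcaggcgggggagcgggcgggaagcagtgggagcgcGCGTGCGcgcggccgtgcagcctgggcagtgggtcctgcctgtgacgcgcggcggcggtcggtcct
Both strands were searched, and the 3 NRF1 matches lie at bases 114 to 120, 173 to 179 and 235 to 241 of the printed run. Of 27305 promoters of this length, 20.3% held at least 1 match and 2.35% at least as many as CD47. The core letters bound by hypoxia-inducible factors, ACGTG and GCGTG, occurred 1 and 3 times, and 2 of the GCGTG matches lie inside the NRF1 matches. ACGTG was present in 21.6% of promoters and GCGTG in 36.3%. The E-box CACGTG, bound by MYC, was not among these letters, against 7.43% of promoters with it. The window was 79% G and C, where the median promoter was 58.3%. These matches describe the sequence, and no binding was measured.

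Values are MAS5 signals, the brightness of a probe set on a linear scale after the authors' background correction and scaling of each array. A difference is log2 signal in hepatospheres minus differentiated cells, after signals below a floor of 84.1 were raised to it. The floor is the higher of the median signals of the arrays. A probe set with 1 array below the floor has a bound only, written as "at least". The floor was reached on 1 or both arrays by 29167 probe sets. In hepatospheres 11.4% of these stood higher by 2-fold or more, and 9.23% lower by as much.

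CD47 read higher in hepatospheres on its bright probe sets and nearly level on 2 dimmer ones. In RNA from a whole culture, fewer expressing cells and less RNA per cell cannot be told apart. On the brightest, 213857_s_at, the signal was 10375 in hepatospheres and 2015 in differentiated cells, 5.15-fold higher (2.36 on the log2 scale). On 211075_s_at it was 6507 in hepatospheres and 1168 in differentiated cells, 5.57-fold higher (2.48). These 2 probe sets stood within 0.11 of each other on the log2 scale. Both names end in _s_at, the mark Affymetrix gives to probe sets that match more than 1 transcript, often splice forms of one gene.

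The 5 CD47 probe sets with plain names, which mark sequence taken as unique, were dimmer and disagreed. On 226016_at the signal was 343 in hepatospheres and 261 in differentiated cells, a log2 difference of 0.40. On 227259_at it was 148 in hepatospheres and 130 in differentiated cells, a difference of 0.18. Both were above the floor on both arrays and within 2-fold. On 242974_at the signal was 289 in hepatospheres and 52.6 in differentiated cells, at least 3.44-fold higher (1.78), and this probe set was measured only through its hepatosphere signal. With the floor at the 60th percentile its bound was 0.92.

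The remaining CD47 probe sets lay below the floor on both arrays and have no difference here. They were 213055_at, at 37.7 in hepatospheres and 16.6 in differentiated cells, and 213856_at, at 38.7 in hepatospheres and 2.76 in differentiated cells. The annotation gives 213856_at the same source sequence record as 213857_s_at, the brightest CD47 probe set. A probe set near background and the brightest one of the gene therefore cite 1 record.

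Of the 7 CD47 probe sets 5 were measured, and 3 of the 5 were at least 2-fold higher, where 11.4% of all measured probe sets were. Of these 3, 242974_at was measured only through its hepatosphere signal, so it adds nothing to the comparison with that share. With the deposited scaling all 7 signals were higher in hepatospheres. The 4 measured on both arrays ran from 0.18 to 2.48.

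CTSS read higher in hepatospheres at low signals. On 232617_at the signal was 507 in hepatospheres and 148 in differentiated cells, 3.42-fold higher (1.78 on the log2 scale). On 202902_s_at it was 510 in hepatospheres and 98.8 in differentiated cells, 5.16-fold higher (2.37). These differentiated-cell signals were close to the floor of 84.1. On 202901_x_at, whose ending marks probes that may cross-match other sequence, the signal was 144 in hepatospheres and 53.8 in differentiated cells, at least 1.71-fold higher (0.77). This last probe set was measured only through its hepatosphere signal.

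Of the 3 CTSS probe sets, 2 were at least 2-fold higher, and these were the 2 above the floor on both arrays. The single CTSS probe set with a plain name was among them. With no floor 202901_x_at stood at 1.42, so it too was then past 2-fold.

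**Figure D1:**
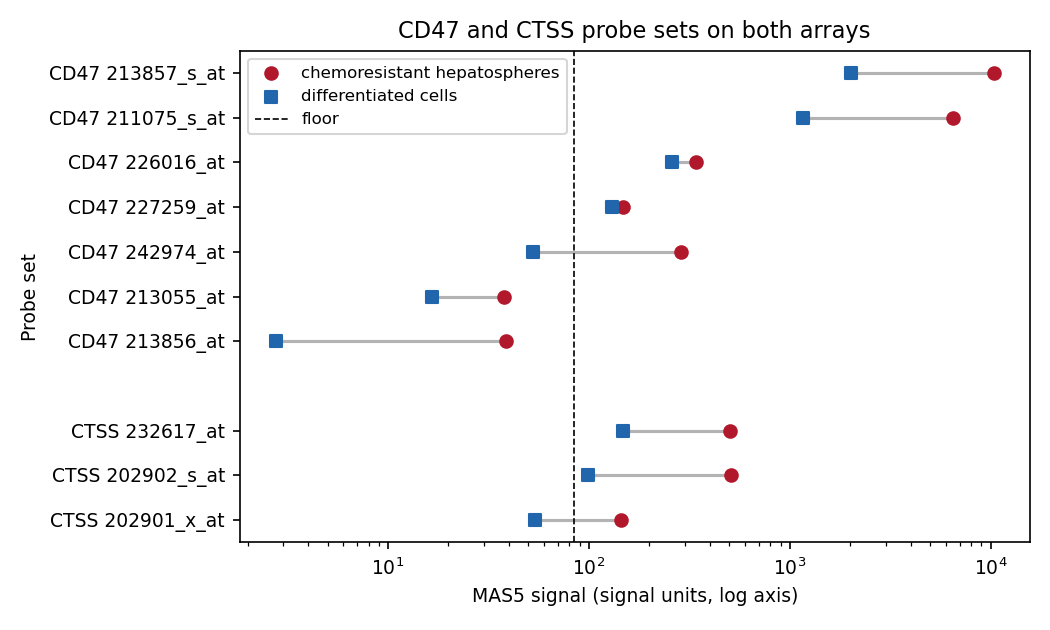
Signal of each CD47 and CTSS probe set (MAS5 signal units, log axis) in hepatospheres (circles) and differentiated cells (squares), 1 array each, with the floor of 84.1 as a dashed line. The gap is over 5-fold on the bright CD47 probe sets 213857_s_at and 211075_s_at, and narrow on 226016_at and 227259_at.

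Probe sets of like brightness gave a scale for these differences. Among 1444 probe sets within 0.5 on the log2 scale of the mean signal of 213857_s_at, 10.9% were higher by 2-fold or more in hepatospheres and 1.39% by at least as much as it. For 211075_s_at these shares were 10.5% and 1.05% of 2189 probe sets. For 226016_at, 31.9% of 5160 probe sets differed upward by at least as much, and for 227259_at 47.1% of 5621. The bright CD47 probe sets thus stood among the most raised of their brightness, and the pair of dimmer ones in the bulk.

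For CTSS, 4.58% of 5198 probe sets as bright as 232617_at differed upward by at least as much. For 202902_s_at the share was 2.43% of 5271, and for 202901_x_at 15.4% of 5062. The share of probe sets at least 2-fold higher was 14.5% around 232617_at, 15.3% around 202902_s_at and 8.93% around 202901_x_at. For 242974_at of CD47 the share differing by at least as much was 3.10% of 5707. The differences of 242974_at and 202901_x_at are bounds, and the floor also cuts differences among probe sets of such signals. Their shares therefore depend on the floor.

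**Figure D2:**
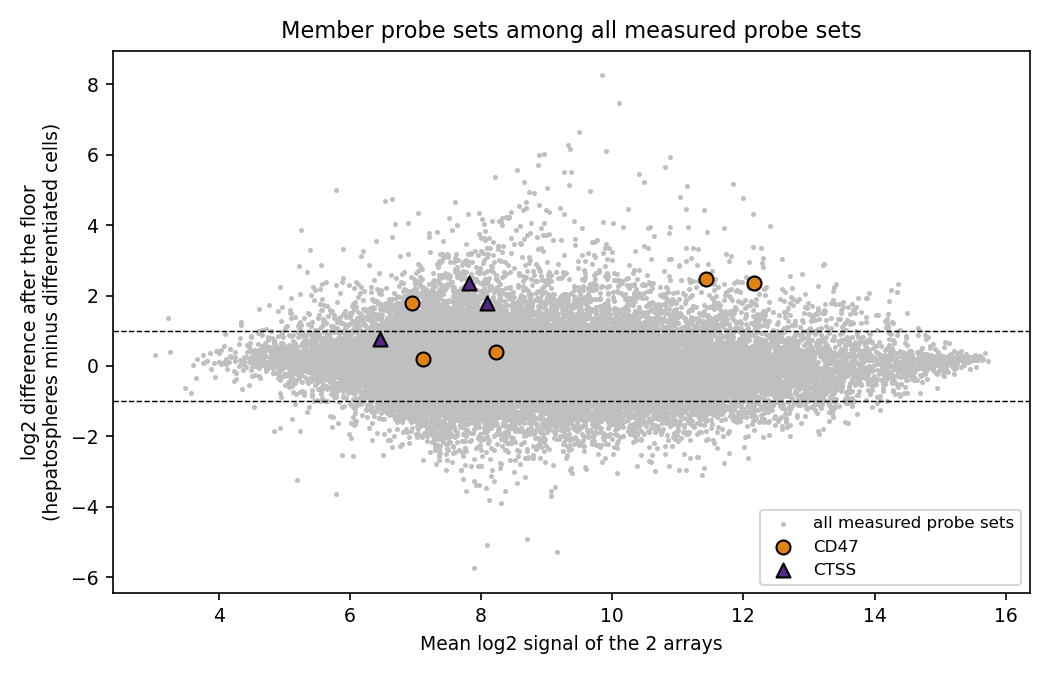
Log2 difference (hepatospheres minus differentiated cells, after the floor) against mean log2 signal for the 29167 measured probe sets (grey), with the 5 measured CD47 (circles) and 3 CTSS (triangles) probe sets. Dashed lines mark 2-fold, and the circles lie both far above and below the upper line.

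The spread between probe sets of 1 gene was large for CD47. Its measured probe sets spanned 2.29 on the log2 scale from lowest to highest difference. Among 473 genes with 5 or more measured probe sets the median span was 1.19, and 42 genes (8.88%), CD47 included, spanned at least as much. The 3 CTSS probe sets spanned 1.59, where 2836 genes with 3 or more measured probe sets had a median of 0.85 and 16.2% spanned at least as much. The CTSS span rests on the bound of 202901_x_at: it was 0.95 with no floor or one at the 40th percentile, and 0.010 with the floor at the 60th, which leaves that probe set out.

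Disagreement of this kind was common among raised genes. Of 42 genes with 5 or more measured probe sets whose brightest was 2-fold higher or more, 3 (7.14%) had every measured probe set at least 2-fold higher. In 27 of the 42 (64.3%) every measured difference was above 0, as for CD47. Of 322 such genes with 3 or more, 72 (22.4%) had every one at least 2-fold higher. Whether CTSS is one of these depends on the floor under 202901_x_at.

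**Figure D3:**
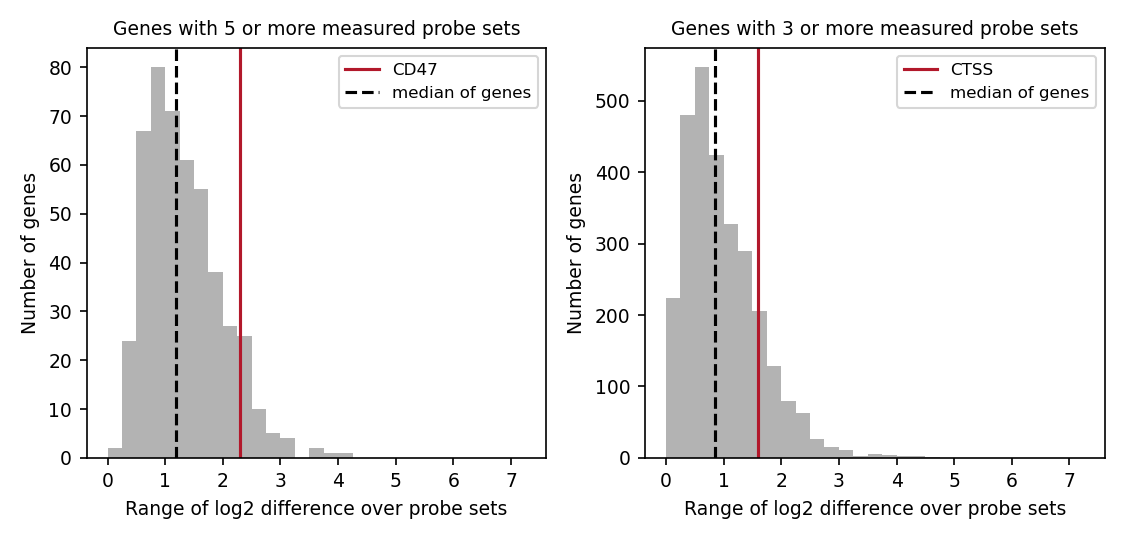
Number of genes by the range of log2 difference over their measured probe sets, for 473 genes with 5 or more (left) and 2836 genes with 3 or more (right). The solid line marks CD47 at 2.29 (left) and CTSS at 1.59 (right), both to the right of the dashed medians of 1.19 and 0.85.

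Probe sets that share sequence were not generally more raised. In 3204 genes with both kinds measured, the shared-sequence probe sets (_s_at and _x_at) differed by a median of 0.02 more than plain ones on the log2 scale, with quartiles of -0.36 and 0.40. For CD47 this gap was 1.63, a value reached by 1.40% of those genes. For CTSS it was -0.20. The shared CD47 probe sets were also brighter than the plain ones by 4.37 in mean log2 signal, where the median gene differed by 0.32, so name class and brightness move together within CD47 and cannot be told apart.

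In 1 control, ACTB, the difference also varied with the transcript end read, and in the others it varied little. RNA for such arrays is labelled from the poly(A) tail, so a probe set far from the 3′ end depends more on intact RNA. The ACTB control, which has probe sets at the 3′ end, the middle and the 5′ end, differed by -0.25, -0.76 and -1.08 in that order. Its 3′ to 5′ ratio was 2.64 in hepatospheres and 1.48 in differentiated cells. The GAPDH control differed by 0.10, 0.07 and 0.03, with ratios of 1.04 in hepatospheres and 0.99 in differentiated cells. The differences at the 3′ and 5′ ends were thus 0.83 apart within ACTB and 0.07 apart within GAPDH. Poly(A) control RNAs differed by medians of 1.02, 1.09 and 0.96, with the ends 0.06 apart. Their median 3′ to 5′ ratios were 4.03 in hepatospheres and 4.42 in differentiated cells. The place of each CD47 and CTSS probe set along its transcript was not analysed here, and the part of transcript end in their differences was not tested. RefSeq lists 3 curated CD47 messenger RNAs and 2 for CTSS.

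The scale of the arrays sets the sign of small differences. The 2% trimmed mean signal was 500.1 in both hepatospheres and differentiated cells, while 24 probe sets of poly(A) control RNAs read a median 2.04-fold higher in hepatospheres. Scaled to these controls, the median of all genes shifts by -0.97 and CD47 stood at 1.33 on 213857_s_at and 1.45 on 211075_s_at, but at -0.63 on 226016_at and -0.85 on 227259_at. CTSS then stood at 0.75 on 232617_at and 1.34 on 202902_s_at. Each direction in the text is thus one against the bulk of genes.

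For each gene the brightest probe set was next taken as its value. By that rule 12766 genes were measured. In hepatospheres 12.5% of these stood higher by 2-fold or more, and 8.83% lower by as much. The higher ones made up 58.7% of genes 2-fold apart, and 6.47% with scaling to the poly(A) controls. The median difference of all measured genes was 0.05.

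The genes nearest to CD47 were found by the distance between pairs of log2 signals over 2 arrays. They were HLA-B, an MHC class I heavy chain, at 10044 in hepatospheres and 2202 in differentiated cells (distance 0.14), and the secreted matrix protein RELN at 9422 in hepatospheres and 1965 in differentiated cells (0.14). NDRG1, a stress-responsive gene, at 10199 in hepatospheres and 1756 in differentiated cells (0.20), and the squalene epoxidase SQLE, at 11342 in hepatospheres and 2408 in differentiated cells (0.29), followed. All were between 4.56-fold and 5.81-fold higher, against 5.15-fold for CD47. Nearest to CTSS were MR1, an antigen-presenting molecule for vitamin B metabolites (3.32-fold), MVD, an enzyme of the mevalonate pathway (3.38-fold), KRABD1 (3.15-fold) and the somatostatin receptor SSTR2 (3.08-fold), at distances of 0.07 to 0.13. With 2 arrays many genes share such a pair of values.

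Around CD47, CTSS and PAR2, 11 lists of linked genes were described. Of 93 listed genes with a probe set, 73 were measured. Of these, 22 (30.1%) stood 2-fold or more higher in hepatospheres and 2 (2.74%) lower, against 12.5% and 8.83% of all genes. With scaling to the poly(A) controls 4 were higher and 20 lower, and without shared-sequence probe sets 11 were higher. The lists were chosen with earlier results of these data known. Some of the higher genes, MFGE8 and CTSF among them, were measured only through their hepatosphere signals. The contrast with all genes is therefore a description only.

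Of 11 measured partners of CD47, 2 were at least 2-fold higher and 1 lower (median 0.22), where 12.5% and 8.83% of all genes were. SIRPA, the receptor for CD47 on phagocytes, read 232 in hepatospheres and 482 in differentiated cells, 2.08-fold lower, with both measured probe sets at least 2-fold lower. QPCTL, the glutaminyl cyclase that modifies the amino end of CD47 for SIRPA binding, read 302 in hepatospheres and 115 in differentiated cells, 2.62-fold higher. ITGAV, the integrin subunit alpha V, read 7360 in hepatospheres and 3047 in differentiated cells, 2.42-fold higher. Its partner ITGB3 was at least 1.67-fold higher at a weak signal of 141 in hepatospheres. THBS1, the thrombospondin that binds CD47, was below the floor on both arrays, at 41.6 in hepatospheres and 31.3 in differentiated cells.

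Of 8 factors reported to act on CD47 transcription, 0 reached 2-fold in either direction (median -0.05), though SNAI1 has a bound only. Of all genes, 12.5% were higher by that much and 8.83% lower. RELA, a subunit of NF-kB, stood at 0.91, and HIF1A at 0.54. MYC stood at -0.80 and NRF1, whose letters are marked in the promoter above, at -0.52, at 272 in hepatospheres and 391 in differentiated cells. The 4 measured NRF1 probe sets ran from -0.88 to 0.51, so its direction turns with the probe set. SNAI1 was at least 1.69-fold higher at a signal of 142 in hepatospheres.

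Other genes linked to phagocyte signals were higher in 4 of 10 measured and lower in 0 (median 0.89, and 0.03 without shared-sequence probe sets). By 2-fold or more, 12.5% of all genes were higher and 8.83% lower. MFGE8 counts among the 4 though it was measured only through its hepatosphere signal. MFGE8, a bridge between phosphatidylserine and phagocyte integrins, read 565 in hepatospheres and 67.7 in differentiated cells, at least 6.72-fold higher. LRP1, a receptor by which phagocytes engage calreticulin, read 790 in hepatospheres and 338 in differentiated cells, 2.34-fold higher. PROS1, the bridging ligand protein S, was 2.18-fold higher, and CD24, a ligand of SIGLEC10 that restrains phagocytes, 2.32-fold with all 6 probe sets at least 2-fold higher. CD24, whose probe sets spanned 1.12 to 1.74, therefore had closer probe sets than CD47. Genes that restrain phagocytes and genes that promote engulfment were both among the higher ones.

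Papain-like cathepsins beside cathepsin S were higher in 4 of 8 measured and lower in 0 (median 1.01). By 2-fold or more, 12.5% of all genes were higher and 8.83% lower. CTSF, counted here though measured only through its hepatosphere signal, was at least 13.3-fold higher, at 1119 in hepatospheres and 56.2 in differentiated cells. CTSH, an aminopeptidase, was 3.84-fold higher, CTSK, a collagen-degrading cathepsin and the neighbour of CTSS, 2.84-fold, and CTSV 2.07-fold. CTSL, which trims the invariant chain in mouse thymic epithelium, read 14352 in hepatospheres and 7278 in differentiated cells, a difference of 0.98. Without shared-sequence probe sets the median of this list was 0.19.

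Cystatins, the inhibitors of these proteases, were higher in 2 of 5 measured and lower in 0 (median 0.16). By 2-fold or more, 12.5% of all genes were higher and 8.83% lower. CSTA, a cytosolic cystatin, read 957 in hepatospheres and 222 in differentiated cells, 4.30-fold higher. CST3, the secreted cystatin C that inhibits cathepsin S, read 8844 in hepatospheres and 3844 in differentiated cells, 2.30-fold higher on the brightest of 3 probe sets, all at least 2-fold higher. CSTB stood at -0.20, and CST1 at -0.54 as a bound.

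Genes of MHC class II processing, the textbook setting of cathepsin S, were higher in 3 of 7 measured and lower in 0. Their median was 0.95, and 1.53 under a 60th percentile floor. By 2-fold or more, 12.5% of all genes were higher and 8.83% lower. HLA-DMA and HLA-DMB, the chains that load peptide onto class II, read 3180 and 1115 in hepatospheres, against 637 and 302 in differentiated cells. That made them 5.00-fold and 3.69-fold higher. LGMN, the lysosomal protease legumain, was 2.28-fold higher. CD74, the invariant chain that cathepsin S trims, read 163 in hepatospheres and 39.3 in differentiated cells, at least 1.94-fold higher. HLA-DRA was below the floor on both arrays, at 11.4 in hepatospheres and 37.0 in differentiated cells.

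Of regulators of CTSS transcription, TFEB, the factor that drives lysosomal genes, was 2.09-fold higher at 206 in hepatospheres and 98.7 in differentiated cells. IRF1, an interferon-induced factor, stood at 0.48, while its other measured probe set stood at -0.40. SPI1, the myeloid factor, was below the floor at 7.34 in hepatospheres and 9.14 in differentiated cells.

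Among the protease-activated receptors, F2R, the thrombin receptor, read 514 in hepatospheres and 250.3 in differentiated cells, 2.05-fold higher on the brighter of 2 probe sets, both at least 2-fold higher. F2RL2 was at least 1.99-fold lower, at 44.8 in hepatospheres and 167 in differentiated cells, and F2RL3 was below the floor on both arrays. Of proteases that can activate PAR2, listed together with the cofactor F3, 2 of 6 measured were higher and 0 lower (median 0.24). By 2-fold or more, 12.5% of all genes were higher and 8.83% lower. The higher ones were the coagulation factor F10, at 1534 in hepatospheres and 561 in differentiated cells (2.74-fold), and the transmembrane protease HPN. HPN read 5123 in hepatospheres and 1968 in differentiated cells (2.60-fold). The other 7 of the 13 with a probe set, trypsin and kallikrein genes among them, were below the floor on both arrays.

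Inhibitors of such proteases were higher in 2 of 5 measured and lower in 0 (median 0.94, and -0.06 without shared-sequence probe sets). By 2-fold or more, 12.5% of all genes were higher and 8.83% lower. SPINT2, a Kunitz inhibitor of membrane serine proteases, read 15153 in hepatospheres and 4689 in differentiated cells, 3.23-fold higher. TFPI, the tissue factor pathway inhibitor, was 2.72-fold higher on its brightest probe set, with its 5 measured ones between -0.32 and 2.10. Of 9 measured signalling genes downstream of PAR2, 1 was at least 2-fold higher and 1 lower (median -0.11), where 12.5% and 8.83% of all genes were. These were PLCB3, 2.12-fold higher, and the beta-arrestin ARRB1, 2.13-fold lower. The 7 measured ARRB1 probe sets ran from -1.40 to 1.25.

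**Figure D4:**
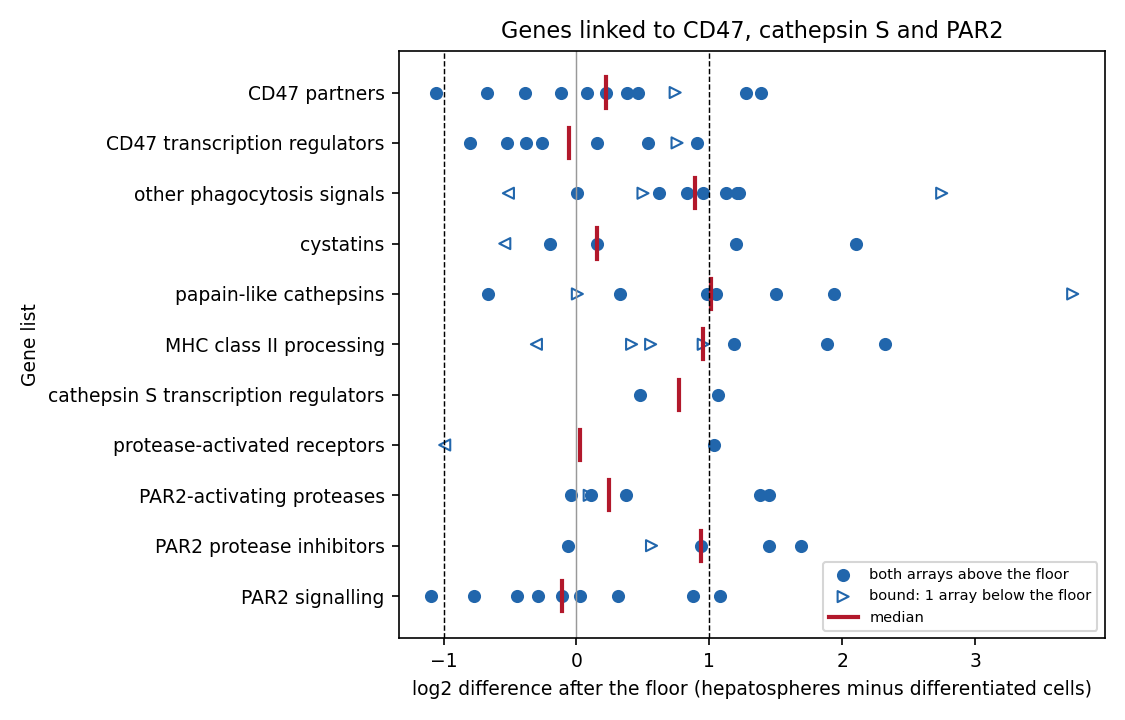
Log2 difference (hepatospheres minus differentiated cells, after the floor) of the measured members of 11 gene lists, with 1 symbol per gene, open triangles for bounds, and a red bar at each list's median. Dashed lines mark 2-fold. Medians run from -0.11 for PAR2 signalling to 1.01 for papain-like cathepsins at this floor, and their order changes with the floor and the choice of probe sets.

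Genes beside CD47 on chromosome 3 differed in both directions, and a shared regional cause was not tested. Of the 4 nearest measured genes on each side, 1 was at least 2-fold higher and 1 at least 2-fold lower (median 0.26). Among all genes these shares were 12.5% and 8.83%, and 8 neighbours are too few to set apart from them. The direct neighbours BBX and IFT57 stood at 0.61 and -0.10. CBLB, a ubiquitin ligase gene, was 2.63-fold higher, and CIP2A, an inhibitor of protein phosphatase 2A, at least 3.24-fold lower. Beside CTSS on chromosome 1, 2 of 8 neighbours were higher and 1 lower (median 0.03), again too few to set apart from those shares. CTSK, the direct neighbour on one side, was 2.84-fold higher, and HORMAD1 on the other stood at -0.95. GOLPH3L was 2.18-fold higher and ENSA 2.53-fold lower.

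**Figure D5:**
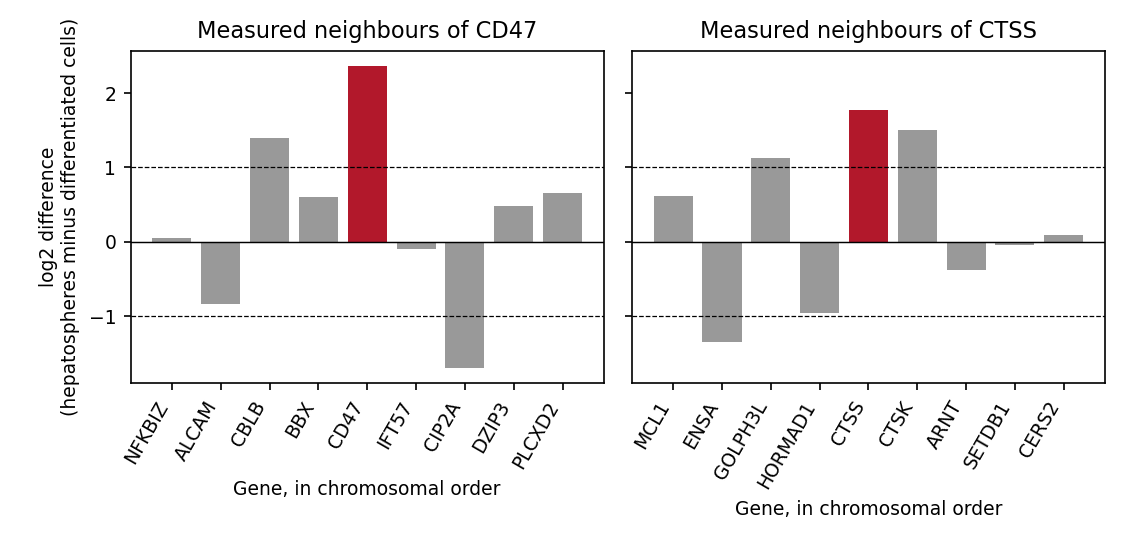
Log2 difference (hepatospheres minus differentiated cells, after the floor) of CD47 (left, red) and CTSS (right, red) on their brightest probe sets and of the 4 nearest measured genes on each side (grey), in order along the chromosome. The CIP2A bar is a bound. CD47 at 2.36 stands above its direct neighbours BBX (0.61) and IFT57 (-0.10). On 226016_at (0.40) and 227259_at (0.18), not drawn here, CD47 stood below BBX, so the contrast turns with the probe set.

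Cathepsin S is most abundant in leukocytes, so markers of other cells were read beside it. Of 9 leukocyte and macrophage markers, 5 were below the floor on both arrays, among them the pan-leukocyte gene PTPRC at 4.38 in hepatospheres and 25.1 in differentiated cells, and CD14 at 36.4 in hepatospheres and 37.1 in differentiated cells. Of the 4 measured, 0 reached 2-fold in either direction on the brightest probe set. Of all genes, 12.5% were higher by that much and 8.83% lower. For CSF1R and ITGAM 1 signal was below the floor and the other less than 2-fold above it. The floor thus kept both within 2-fold, and the count cannot be weighed against those shares. LYZ had 2 measured probe sets, at 0.72 on the brightest and 2.83 on the other. CSF1R, the macrophage growth factor receptor, read 97.7 in hepatospheres and 10.1 in differentiated cells, a bound only. ITGAM, a myeloid integrin subunit, read 73.2 in hepatospheres and 122 in differentiated cells, also a bound only. The lysosomal gene LAPTM5 read 98.3 in hepatospheres and 104 in differentiated cells. The list summed to 10868 in hepatospheres and 6702 in differentiated cells, nearly all of it LYZ, at 10455 in hepatospheres and 6364 in differentiated cells. None was at 0.

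Of 7 fibroblast markers 4 were measured, and 2 of these were at least 2-fold higher, where 12.5% of all genes were. These 2, LUM and COL3A1, were measured only through their hepatosphere signals, so the count cannot be weighed against that share. The list summed to 4097 in hepatospheres and 432 in differentiated cells, led by LUM at 2677 in hepatospheres and 1.14 in differentiated cells and COL3A1 at 679 in hepatospheres and 42.6 in differentiated cells. COL1A1 stood at 0.70, with its 3 measured probe sets between -0.37 and 1.99. DCN stood at 0.72 as a bound, and COL1A2, PDGFRB and PDGFRA were below the floor on both arrays. Of 5 endothelial markers 4 were below the floor on both arrays, and the list summed to 3862 in hepatospheres and 3458 in differentiated cells. Hepatocyte and tumour markers were above the floor in 7 of 7 on both arrays, and 2 were at least 2-fold higher and 3 lower (median -0.76). Among all genes these shares were 12.5% and 8.83%. Albumin (ALB) read 27887 in hepatospheres and 10276 in differentiated cells, and TTR 1364 in hepatospheres and 243 in differentiated cells, 5.62-fold higher. GPC3 was 8.26-fold lower on its brightest probe set, with its other measured probe set at -0.99. AFP was 5.66-fold lower and KRT8 2.16-fold. The part of these markers in the CD47 and CTSS differences was not tested.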

How the data were processed

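The deposited values are intensity values on a linear scale, 1 MAS5 signal per probe set, with MAS5 named in the submitters' processing notes. For MAS5 the version and target, and for the array the build, were not given in the sources used here. Signals were kept as deposited. Groups came from the source names in the labels, with 1 array each, so no difference between groups was tested, and the number of arrays limits precision. Probe sets were named through GEO's array annotation, and identifiers of 41037 of 41091 single-symbol probe sets matched RefSeq's gene table (GRCh38.p14), used only for names and gene order. Signals below the 50th percentile floor (84.1) were raised to it before log2. The probe set of highest mean log2 signal stood for its gene. Named genes were all member probe sets, up to 4 members with the largest differences per list, 6 genes named in any case, 4 measured neighbours per side and the 4 nearest genes by signal. Marker genes, HLA-DRA and NRF1 were named after their values were seen. Members and lists were chosen with earlier results of these data known. The script that counts fold calls was checked on simulated data. Tools were matplotlib 3.10.9, statsmodels 0.14.6, scipy 1.17.1, pandas 2.3.3, numpy 2.4.6 and Python 3.11.15.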

Additional observations from a re-analysis of the deposited data

How the results depend on the processing

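Median centring, quantile normalization, loess (span 0.3), scaling to hybridisation controls, adding the floor to each signal, leaving the floor out, setting it at the 40th or 60th percentile, and scaling to poly(A) controls gave CD47 differences between 1.33 and 2.42 on its brightest probe set and CTSS differences between 0.75 and 1.78. The value of 0.75 for CTSS, under 2-fold, came from the poly(A) scaling, which also gave 399 genes higher and 5764 lower instead of 1601 and 1127, and 4 higher and 20 lower pathway genes instead of 22 and 2. Without shared-sequence probe sets CD47 stood at 0.40, on 226016_at, and 11 pathway genes were higher, with genes lacking a plain probe set lost. The CTSS range over probe sets was 0.95 with the floor at the 40th percentile or no floor, and 0.010 at the 60th, where the dimmest probe set no longer counts. No paired analysis was possible because each group has 1 array. Signals near the floor limit CTSS and the dim CD47 probe sets.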
